A study of Mus musculus with 12 samples.

Results

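The SLAM family receptors and their adaptor SAP form a small signaling module of lymphocytes, and 8 of its genes were followed here in autoreactive CD8+ T cells that lacked the histone demethylase UTX (*Kdm6a*). The genes were taken by symbol from a fixed list of names, namely *Slamf1*, *Slamf6*, *Slamf7*, *Cd84*, *Ly9*, *Cd48*, *Cd244a* and *Sh2d1a*, and all 8 were among the 25860 genes of the RNA-seq table. SLAM receptors are immunoglobulin-like surface proteins of blood cells, and most of them bind the same receptor on a neighboring cell, whereas CD48 is a lipid-anchored ligand that is bound by CD244 and CD2. Most of the receptors carry tyrosine switch motifs in their cytoplasmic tails that recruit SAP, the product of *Sh2d1a*, which brings in the kinase FYN, and in the absence of SAP the same motifs can recruit inhibitory phosphatases. SAP is needed for NKT cell development and for stable contact between T cells and B cells, and its loss in humans causes X-linked lymphoproliferative disease.

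The study asked how UTX acts in the stem-like progenitors of the CD8+ T cells that attack pancreatic β cells. Progenitors (T_prog_) were sorted from pancreatic lymph nodes of female NOD mice carrying a transgenic T cell receptor for the islet antigen IGRP. The UTX-deficient mice had floxed *Kdm6a* alleles deleted by Cre under the *Lck* promoter, so the deletion was present from T cell development onward and in CD4+ as well as CD8+ T cells, and Cre-negative littermates served as WT. Each genotype had 3 RNA-seq and 3 ATAC-seq libraries. The floxed allele had been backcrossed from C57BL/6 to NOD, no treatment was given, and the age of the mice behind these libraries was not given in the sources used here. The sort took cells positive for Ly108 and, by the methods, negative for CD39, while the description of the series gives cells negative for CXCR6. Ly108 is the protein product of *Slamf6*, so one of the 8 genes was used to choose the cells in both genotypes.

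The RNA-seq libraries held between 61512402 reads, in UTX replicate 1, and 193568919 reads, in WT replicate 3. *Kdm6a* had 28365, 28949 and 29172 normalized counts in the WT libraries and 24159, 24792 and 24579 in the UTX-deficient libraries, so most of its reads remained after the deletion and every UTX-deficient library was below every WT library. The T cell genes *Cd3e* and *Cd8a* were abundant in all 6 libraries, with at least 133010 and 270012 normalized counts. *Cxcr6*, a marker of effector-like cells and, by one of these descriptions, of the cells that the sort removed, had 12757, 9619 and 13724 normalized counts in WT and 5286, 5994 and 5695 in UTX-deficient T_prog_. *Entpd1*, which encodes CD39, was between 4.42 and 29.6 normalized counts in the 6 libraries.

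One of the SLAM module genes passed both the p and the fold limit for a difference between genotypes. The test was limma on log2(normalized count + 1) for the 14459 genes whose normalized counts averaged 10 or more, and a call needed both a log2 fold change beyond 0.5 in either direction and a p under 0.05 after Benjamini-Hochberg adjustment. Of the 8 genes, 1 was called, *Cd48*, which fell, beside 17.6% of all genes tested. By adjusted p alone 2 of the 8 passed, *Cd48* and *Sh2d1a*, both lower in UTX-deficient cells, beside 40.7% of all genes. With the deposited scaling the libraries of the genotypes did not overlap for 4 of the 8 genes, all lower in UTX-deficient cells, beside 51.9% of all genes tested. Scaled to the same sum, an alternative chosen for this count after seeing the data, they did not overlap for 2, *Cd48* and *Cd244a*, beside 52.9%. The median log2 fold change of the 8 genes was −0.05, against −0.00018 over all genes, and their median absolute log2 fold change was 0.26, against 0.21. All 8 passed the filter on low values, and in none of these counts was the share of the module above that of all genes.

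**Figure D1:**
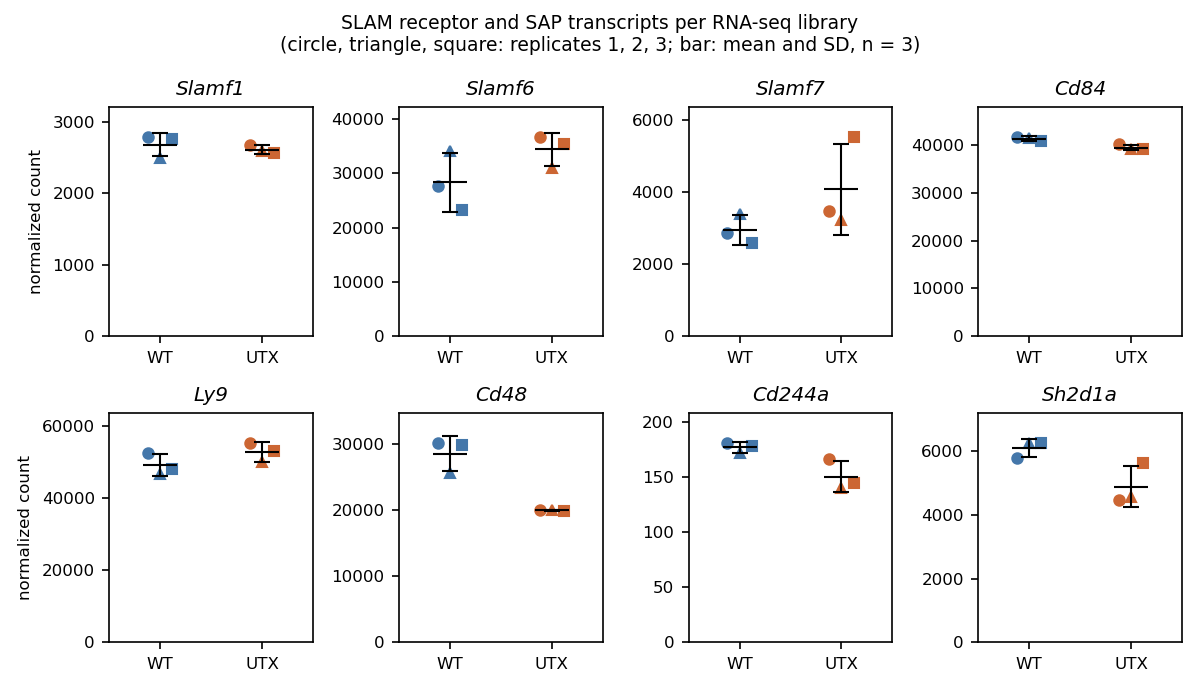
Normalized counts of the 8 SLAM module genes in each RNA-seq library (vertical axes, each starting at 0) for WT and UTX-deficient T_prog_ (UTX), with bars for the mean and SD (n = 3) and a symbol for each replicate number. The 3 UTX-deficient libraries of *Cd48* lie between 19908 and 19949, below all 3 WT libraries, while *Slamf7* in UTX replicate 3 stands above the other 5 libraries at 5533.

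CD48 is the broadly expressed ligand of the module, and its gene was the one that passed both limits of the call. *Cd48* had 30112, 25529.8 and 29872 normalized counts in WT T_prog_ and 19916, 19949 and 19908 in UTX-deficient T_prog_. The UTX-deficient libraries were nearly identical to each other and the lowest WT library, replicate 2, lay well above them. The mean of 28505 ± 2579 (SD, n = 3) in WT stood against 19924 ± 21.4 (SD, n = 3) in the UTX-deficient libraries. This gave a log2 fold change of −0.51 ± 0.06 (SE) and a limma adjusted p of 0.000261. This size sat at the fold limit of the call. It was −0.47 without WT replicate 1, −0.48 without WT replicate 3 and −0.45 when all libraries were scaled to the same sum. In each of these cases *Cd48* was not called, although its limma, edgeR or DESeq2 adjusted p stayed at 0.00163 or below in every alternative. In bulk RNA, fewer cells with the transcript and less transcript per cell cannot be told apart.

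CD2 and CD244 are the receptors that bind CD48. *Cd2*, the adhesion receptor of T cells, had 70704 normalized counts in WT replicate 1, 57344 in WT replicate 2 and 69765 in WT replicate 3, against 49437, 49257 and 42214 in the UTX-deficient libraries. No UTX-deficient library of *Cd2* reached the WT range, and the log2 fold change of −0.49 ± 0.09 (SE), with a limma adjusted p of 0.00257, lay just short of the fold limit. *Cd2* was called when WT replicate 2, UTX replicate 1 or UTX replicate 2 was left out. *Cd244a*, the CD48 receptor best known from NK cells and chronically stimulated CD8+ T cells, was the scarcest of the 8 genes, at 181, 172 and 178 normalized counts in WT and 166, 140.1 and 144 in UTX-deficient T_prog_. Its genotypes did not overlap, but the gap between WT replicate 2 and UTX replicate 1 was small, and the log2 fold change of −0.24 had a 95% interval from −0.58 to 0.10 and a limma adjusted p of 0.237.

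*Slamf6* encodes the self-binding receptor Ly108, a surface marker of stem-like CD8+ T cells. It had 27732, 34096 and 23305 normalized counts in WT and 36665, 30979.8 and 35425 in UTX-deficient T_prog_. The genotypes overlapped, since WT replicate 2 lay above UTX replicate 2, and the WT libraries were widely spread. The log2 fold change of 0.29 had a 95% interval from 0.01 to 0.57 and a limma adjusted p of 0.0890, which did not pass. Without WT replicate 2 the log2 fold change was 0.43 with a limma adjusted p of 0.00921, and without WT replicate 3 it was 0.16 with a limma adjusted p of 0.256. Over all alternatives the limma, edgeR and DESeq2 adjusted p of *Slamf6* ranged from 0.00921 to 0.256. Since cells without Ly108 on the surface were removed in both genotypes, these values describe the sorted cells only.

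The self-binding receptors *Cd84* and *Ly9* were among the most abundant transcripts of the module and differed little between genotypes. CD84, which takes part in T cell and B cell contact, had 41615, 41482 and 40714 normalized counts for its gene in WT and 40064, 39044 and 39058 in UTX-deficient T_prog_. With the deposited scaling every UTX-deficient library of *Cd84* was below every WT library, yet the difference was small, with a log2 fold change of −0.07, a 95% interval from −0.15 to 0.02 and a limma adjusted p of 0.185. When the libraries were scaled to the same sum they overlapped, and the log2 fold change was −0.0050 with a limma adjusted p of 0.927. The limma, edgeR and DESeq2 adjusted p of *Cd84* ranged from 0.170 to 0.927 over all alternatives. *Ly9*, which encodes the CD229 receptor, had 52501, 46693 and 47968 normalized counts in WT and 55304, 50036 and 53048 in UTX-deficient T_prog_. Here WT replicate 1 lay above UTX replicate 2, and the log2 fold change was 0.11 with a 95% interval from −0.02 to 0.24. Its limma adjusted p was 0.170, and it was 0.0458 when the libraries were scaled to the same sum, the lowest of the alternatives.

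*Slamf1* encodes CD150, the founding member of the family, whose human form is also a receptor for measles virus. Its normalized counts were 2789.5, 2492 and 2763 in WT and 2679, 2595 and 2563 in UTX-deficient T_prog_, and all 3 UTX-deficient libraries lay inside the WT range. With a log2 fold change of −0.036 and a 95% interval from −0.18 to 0.11, *Slamf1* had the smallest difference of the 8 genes with the deposited scaling and all libraries. Its sign turned, to 0.026, when the libraries were scaled to the same sum, where *Cd84* had a smaller difference, of −0.0050. That scaling moved all genes nearly alike, and their median log2 fold change was 0.062 with it, against −0.00018 with the deposited scaling. Without WT replicate 2 the *Slamf1* difference was −0.088, larger than that of *Cd84*, at −0.064.

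*Slamf7* encodes CRACC, a self-binding receptor of NK cells, plasma cells and activated CD8+ T cells that signals through the SAP relative EAT-2. It had 2856, 3401 and 2594 normalized counts in WT and 3475, 3222 and 5533 in UTX-deficient T_prog_. A single library, UTX replicate 3, was high, and the others overlapped between genotypes. The log2 fold change was 0.43 with a 95% interval from 0.01 to 0.85 and a limma adjusted p of 0.0939. Without UTX replicate 3 it was 0.19 with a limma adjusted p of 0.203, and without UTX replicate 2 it was 0.58 with a limma adjusted p of 0.0452, when *Slamf7* was called. Over all alternatives the limma, edgeR and DESeq2 adjusted p of *Slamf7* ranged from 0.0452 to 0.229.

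Some genes of other cell types were also highest in UTX replicate 3, the library in which *Slamf7* was high, while other genes of the same lists were not. *Ms4a1* had 73.0 normalized counts there against at most 29.6 elsewhere, and *Jchain* had 89.2 against at most 38.2. *Cd22* had 502 against at most 277, and *Klra4* had 108 against at most 68.1. In contrast, *Cd79b*, at 469.6 normalized counts, and *Tyrobp*, at 92.1, were lowest of the 6 libraries there, and *Cd79a*, at 379.6, and *Prdm1*, at 83.3, were the lowest of the UTX-deficient libraries. Within UTX replicate 3, *Cd22* was above *Cd79b*, *Jchain* above *Prdm1* and *Klra4* above *Tyrobp*. Of the 7 B cell markers 6 were tested, and *Ms4a1* and *Cd22* were called higher while *Cd79b*, the most abundant of them over the 6 libraries together, was called lower, beside 17.6% of all genes called. The summed B cell list was 3039, 2548 and 2889 normalized counts in WT and 1509, 1341 and 1548 in UTX-deficient libraries, and *Pax5* stayed at or below 11.1 in every library. The summed list of 4 plasma cell markers, led by *Prdm1*, was 117, 108 and 110 normalized counts in WT and 191, 163 and 192 in UTX-deficient libraries, with *Sdc1* and *Jchain* of 3 tested called higher and *Tnfrsf17* at or below 5.92. The summed list of 5 NK cell markers, led by *Tyrobp*, was 202, 232 and 141 normalized counts in WT and 216, 179 and 239 in UTX-deficient libraries, with *Klra4* of 3 tested called higher and the defining marker *Ncr1* listed at 0 in 4 of the libraries. The red cell genes *Hba-a1*, at 129.7 normalized counts against at most 61.4 elsewhere, and *Hbb-bs*, at 16.2 against at most 9.87, were highest in UTX replicate 3 too, but the more abundant red cell gene *Alas2* was not, at 153 against 174 in WT replicate 1. *Myb* was highest there as well, at 27053.5 normalized counts, as was *Plcg2*, at 1094. The part of these transcripts' source, or of this library, in the *Slamf7* values was not tested.

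SAP, the adaptor that most SLAM receptors share, is encoded by *Sh2d1a* on the X chromosome, 24.2 Mb from *Kdm6a*. *Sh2d1a* had 5796, 6267 and 6267 normalized counts in WT and 4476, 4575 and 5638 in UTX-deficient T_prog_. The genotypes did not overlap with the deposited scaling, although UTX replicate 3 came close to WT replicate 1, and they overlapped when scaled to the same sum. WT libraries averaged 6110.2 ± 272 (SD, n = 3) and UTX-deficient libraries 4896 ± 644 (SD, n = 3). Its log2 fold change of −0.33 ± 0.09 (SE) had a limma adjusted p of 0.0150 and was smaller than the fold limit, so that *Sh2d1a* was not called. Leaving out UTX replicate 2 gave a limma adjusted p of 0.0588, the highest of the alternatives, and leaving out UTX replicate 3 gave the largest difference, −0.43.

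The EAT-2 adaptors, encoded by *Sh2d1b1* and *Sh2d1b2*, were listed at 0 in 5 of the 6 libraries and at 1.47 normalized counts in UTX replicate 3. Among the libraries at 0, that count allowed up to 2.29 normalized counts in WT replicate 3 and up to 6.75 in UTX replicate 1, the shallowest library, taking 3 reads as the floor. SAP was therefore the only adaptor of this kind with a level above a few reads in these cells.

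Per kilobase of exon, the module spanned a wide range of levels. In WT T_prog_, *Cd48* stood first with 23974 ± 2169 normalized counts per kilobase (SD, n = 3). *Ly9* followed with 14833 ± 923 normalized counts per kilobase, and *Cd84* came next with 6580.1 ± 77.5. Below them was *Slamf6*, at 2619.8 ± 501 normalized counts per kilobase, ahead of the adaptor gene *Sh2d1a* at 1109.9 ± 49.4. *Slamf7* reached 645 ± 90.0 normalized counts per kilobase, *Slamf1* 436 ± 26.8, and *Cd244a* only 36.3 ± 1.00. Each step of this order was larger than the spread between the WT libraries, but that spread does not include error in the exon lengths. The length was the union of all annotated exons of a gene, from 1189 bases for *Cd48* to 10832 for *Slamf6*. The order depends on these lengths, and which of the exons were used in these cells was not tested. In UTX-deficient T_prog_ the levels of *Cd48*, at 16757 ± 18.0 normalized counts per kilobase, and *Ly9*, at 15965 ± 799, differed by less than the SD of *Ly9*. The levels of *Slamf7*, at 891 ± 277 normalized counts per kilobase, and *Sh2d1a*, at 889 ± 117, could not be ordered.

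The wider SLAM pathway was measured through a list of 29 relatives, adaptors, kinases, phosphatases and target genes. Of these, 22 passed the filter on low values, and 2 were called, 1 higher and 1 lower, beside 17.6% of all genes tested. The median log2 fold change of the list was −0.05. *Cxcr5*, the receptor that leads follicular T cells toward B cells, had 2658, 2788 and 2298 normalized counts in WT and 6429, 6344 and 8593 in UTX-deficient T_prog_. All 3 UTX-deficient libraries lay far above the WT range, and the log2 fold change was 1.45 ± 0.12 (SE) at a limma adjusted p of 2.63e-05. *Icos*, a costimulatory receptor of follicular and activated T cells, had 8687 normalized counts in WT replicate 1, 9532 in WT replicate 2 and 8130 in WT replicate 3, and 5605, 5392 and 4859 in the UTX-deficient libraries. It fell without overlap, with a log2 fold change of −0.73 ± 0.07 (SE).

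The signaling partners of SLAM receptors and SAP include kinases, adaptors and phosphatases. None of 11 activating partners and none of 7 inhibitory partners was called by limma, and by adjusted p alone 4 of the former and 2 of the latter passed, beside 17.6% of all genes called and 40.7% by adjusted p alone. *Fyn*, whose kinase binds SAP directly, was between 62010.5 and 65810 normalized counts in all 6 libraries, with overlapping genotypes and a log2 fold change of 0.04. *Lck*, the proximal kinase of the T cell receptor, had 176303, 168825 and 180892 normalized counts in WT and 156546, 159703 and 151489 in UTX-deficient T_prog_, lower without overlap but by a log2 fold change of only −0.17. *Inpp5d*, which encodes the inhibitory phosphatase SHIP-1, had 25489.9, 25569 and 26734 normalized counts in WT and 29467, 31341 and 30569.7 in UTX-deficient T_prog_, higher without overlap. Its log2 fold change was 0.23 with a limma adjusted p of 0.0024. *Ptpn6*, the gene of the phosphatase SHP-1, overlapped between genotypes with a log2 fold change of 0.02.

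Among all other genes tested, the 3 whose log2 values were most like those of *Slamf6* over the 6 libraries were *Usp50*, *Ctbs* and *4933404O12Rik*. Their Pearson correlations with *Slamf6* were 0.997, 0.989 and 0.988, as descriptions chosen from all genes over only 6 libraries. None of the 3 was called, and like *Slamf6* each was higher in WT replicate 2 than in the other WT libraries.

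The 7 receptor genes lie side by side on chromosome 1, from *Cd244a* to *Slamf6*, within 390.2 kilobases between positions 171558718 and 171948958 of mm10. No other gene in that stretch had a row in the RNA-seq table used here, and 3 of the 8 other RefSeq genes there overlap a receptor gene: *Mir7683* in *Slamf7*, *Gm51686* in *Cd84* and *Gm37065* in *Slamf6*. As the strand setting of the counting was not stated, reads from these genes and from the receptor genes cannot be told apart. *Cd48* was thus called lower in a cluster whose other 6 receptor genes were not called.

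Chromatin at the module was read from the ATAC-seq table, in which every listed peak had an adjusted p-value of the authors under 0.05, and in which differences of 0.5 or less were listed too. It gave 13 of its 23932 peaks to the 8 genes, at least 1 to each. In UTX-deficient T_prog_ 7 of the 13 were higher and 6 were lower by the authors' mean log2 concentrations, which is 53.8% higher, beside 68.8% over all listed peaks. These are the authors' means for each genotype, so that no spread between libraries stands behind them here, and peaks above that p-value were not in the table. Of the 13 peaks, 5 differed by more than 0.5 in either direction, 1 higher and 4 lower, which is 20.0% higher, beside 67.5% of the 17503 listed peaks past that limit. No promoter or 5′ exon peak of the module was among the 5. Of the 5 peaks at a promoter or in a first or second exon, 4 were higher, and of the 8 in introns or between genes, 3 were higher. Over all listed peaks 85.8% of those at promoters and 5′ exons and 66.5% of the others were higher.

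Of the 6 lower peaks, 5 lay away from promoters and 5′ exons, as did 7055 of the 7466 lower peaks in the whole table. The strongest decrease among the 13 was upstream of *Slamf1*, at −4847 bases from its start and chr1:171762085-171762485, where the authors' mean log2 concentration was 7.07 in WT and 5.97 in UTX-deficient T_prog_, a difference of −1.10. An intergenic peak of *Cd84*, at −18170 bases from its start and chr1:171821327-171821727, had 7.39 in WT and 6.54 in UTX-deficient cells. The intergenic peak of *Ly9*, at −11840 bases and chr1:171619050-171619450, had 6.78 and 6.07. In intron 1 of *Cd244a*, at chr1:171561834-171562234, the values were 7.85 and 7.19. None of *Slamf1*, *Cd84*, *Ly9* and *Cd244a* was called in RNA.

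*Cd48*, which was called lower in RNA, had a single listed peak, and it was lower as well. It lay at the promoter, at −471 bases from a transcription start and chr1:171681321-171681721, with an authors' mean log2 concentration of 9.20 in WT and 8.89 in UTX-deficient T_prog_. The difference of −0.31 was the smallest of the 6 decreases. It was also the only promoter peak of the module that was lower.

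The promoter or 5′ exon peaks of *Slamf7*, *Slamf6*, *Cd84* and *Sh2d1a* were higher in UTX-deficient T_prog_ by the authors' means. The *Slamf7* promoter peak, at chr1:171648837-171649237, went from 8.73 to 9.18. At the first exon of *Slamf6*, chr1:171917400-171917800, the authors' mean log2 concentration was 10.21 in WT and 10.51 in UTX-deficient cells, and at a 5′ exon of *Cd84*, chr1:171840425-171840825, it was 9.13 and 9.40. The *Sh2d1a* promoter peak, chrX:42502248-42502648, had 9.67 and 10.05, higher in UTX-deficient cells while the *Sh2d1a* transcript was lower. Both other peaks given to *Sh2d1a* were higher too, from 8.16 to 8.57 at chrX:42360498-42360898, which is at −141867 bases from the start, and from 6.74 to 7.24 at chrX:42557281-42557681, which lies beyond the gene in an intron of another transcript.

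*Slamf1* held peaks of both directions. Within its intron 3, the peak at chr1:171778073-171778473 was lower, from 8.03 to 7.55, and another peak of that intron was higher, from 9.54 to 10.10. The *Slamf1* transcript count did not differ beyond its spread, with accessibility differing in opposite directions at these sites.

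The listing by nearest gene name left most of the *Slamf6* region to another gene. Only 1 peak carried the name of *Slamf6*, but 4 listed peaks overlapped its body, and the other 3 were named for the noncoding RNA gene *Gm37065*, which starts inside *Slamf6* on the opposite strand. *Gm37065* was given 7 listed peaks, 4 higher and 3 lower. The strongest of them by level was in intron 1 of *Slamf6*, at chr1:171921310-171921710, with an authors' mean log2 concentration of 11.46 in WT and 11.82 in UTX-deficient T_prog_. Near the start of *Gm37065*, at chr1:171919204-171919604, the values were 9.45 and 9.95. Toward the other end of *Slamf6* the peaks were lower, from 8.69 to 8.32 in intron 6 at chr1:171939323-171939723 and from 7.80 to 7.14 just past the gene at chr1:171949017-171949417. Peaks near the start of *Slamf6* were thus higher and those at its end lower in UTX-deficient cells.

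Downstream of *Slamf6*, a peak named for *Vangl2* at chr1:171995002-171995402 had the largest difference of the region, from 7.39 in WT to 5.81 in UTX-deficient T_prog_, or −1.58. *Vangl2*, a planar cell polarity gene named here after its values were seen, had 278, 242 and 305 normalized counts in WT and 389, 411 and 399 in UTX-deficient T_prog_, with a log2 fold change of 0.54 and a limma adjusted p of 0.00850. A peak past the end of *Slamf7*, at chr1:171629150-171629550, was named for *Mir7683* and was higher, from 9.49 to 9.99. With peaks assigned by position, inside a gene of the module or within 10 kilobases of it, 8 were higher and 6 lower, and with only the named peaks within 50 kilobases of a start kept, 5 were higher and 6 lower.

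**Figure D2:**
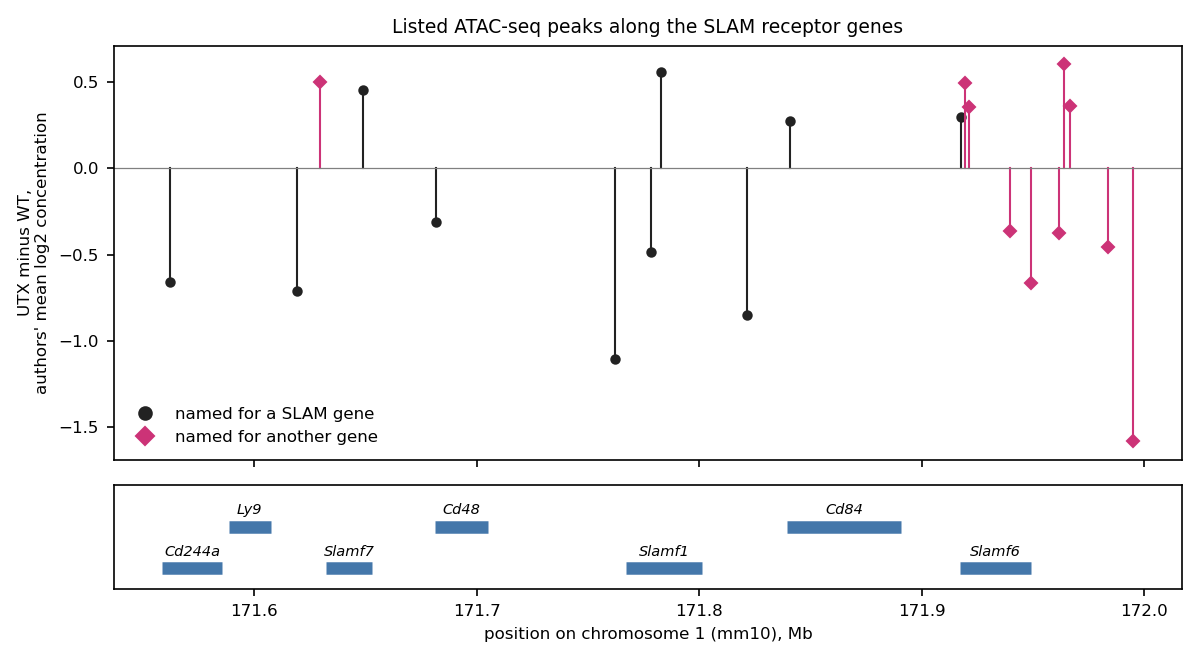
Difference of the authors' mean log2 concentration, UTX-deficient minus WT, of each listed ATAC-seq peak (vertical axis) along chromosome 1 in mm10 (horizontal axis, Mb), with bars below for the 7 receptor genes. Circles mark peaks named for a SLAM gene and diamonds those named for another gene, and the lowest point is the *Vangl2* peak at −1.58.

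The reference sequence at the middle of some peaks is shown, starting with the *Slamf1* site that had the largest difference among the 13, as the plus strand of GRCm38.p6 from RefSeq, which is the C57BL/6J sequence and was not read from the NOD mice. Each window is 201 bases long. Capitals mark matches on either strand to CTTTGA (TCF1), TTCNNNGAA (STAT), TGTGGT (RUNX), AGGAAG (ETS) or TGANTCA (AP-1), motifs chosen after the peaks were known. The upstream site of *Slamf1* is followed by the site of its intron 3 that was lower.
*Slamf1* upstream, chr1:171762185-171762385: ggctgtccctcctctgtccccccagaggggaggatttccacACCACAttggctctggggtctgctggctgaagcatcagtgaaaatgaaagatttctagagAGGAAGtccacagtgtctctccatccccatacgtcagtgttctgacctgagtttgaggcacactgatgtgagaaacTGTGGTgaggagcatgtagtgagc
*Slamf1* intron 3, lower, chr1:171778173-171778373: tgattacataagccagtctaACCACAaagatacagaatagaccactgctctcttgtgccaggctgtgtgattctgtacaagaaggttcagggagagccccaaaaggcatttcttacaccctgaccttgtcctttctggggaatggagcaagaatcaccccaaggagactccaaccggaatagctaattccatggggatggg

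The strongest site inside *Slamf6*, the listed site of *Ly9* and a site given to *Sh2d1a* that lies beyond the gene were chosen for display because they held the TCF1 letters, so nothing can be read from the matches in them, and the *Slamf6* site is not among the 13. TCF1 is a factor central to progenitor T cells.
*Slamf6* intron 1, higher, chr1:171921410-171921610: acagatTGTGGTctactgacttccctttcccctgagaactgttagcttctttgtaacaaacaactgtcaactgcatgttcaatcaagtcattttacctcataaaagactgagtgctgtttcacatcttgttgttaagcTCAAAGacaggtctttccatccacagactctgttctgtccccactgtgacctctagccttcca
*Ly9* upstream, lower, chr1:171619150-171619350: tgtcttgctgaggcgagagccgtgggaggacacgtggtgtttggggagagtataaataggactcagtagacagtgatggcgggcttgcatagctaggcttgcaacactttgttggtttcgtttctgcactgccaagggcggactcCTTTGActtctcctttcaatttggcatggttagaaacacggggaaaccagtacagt
*Sh2d1a*, beyond the gene, higher, chrX:42557381-42557581: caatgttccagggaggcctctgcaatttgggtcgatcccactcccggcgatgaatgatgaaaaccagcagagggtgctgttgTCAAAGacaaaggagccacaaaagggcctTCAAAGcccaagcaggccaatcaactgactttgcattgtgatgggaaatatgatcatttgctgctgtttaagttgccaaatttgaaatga

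Over the 13 windows of the module's peaks, 5 held the RUNX letters TGTGGT, beside 28.2% of the 23908 listed peaks on assembled chromosomes, and 5 held the ETS letters AGGAAG, beside 40.8%. The TCF1 letters CTTTGA were in 2 of the 13 windows, beside 19.1% of all listed peaks, and the AP-1 letters TGANTCA in 1, at the *Slamf7* promoter, beside 7.60%. None of the 13 held the STAT letters TTCNNNGAA, which 5.89% of all listed peaks held. A match describes the letters of the reference window and does not show that a factor was bound. The *Cd48* window held none of the 5 motifs, and it lies in an annotated exon, so its sequence is not printed.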

How the data were processed

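The deposited RNA-seq values were signal in the form of read counts per gene that the authors obtained with HISAT2 2.2.1 on mm10 and featureCounts and divided by DESeq2 size factors. Dividing by each library's smallest nonzero value gave whole reads, within 0.1, for 100% of values in all 6 libraries. limma 3.58.1 in R 4.3.3 was fitted to log2(normalized count + 1) of all genes with a mean of at least 10, without covariates, and edgeR 4.0.16 and DESeq2 1.42.0 were run on the recovered reads as alternatives. The exact permutation p of 3 against 3 libraries cannot go below 0.10, so no single-gene permutation test was used. The p-values measure the spread between libraries, given as 3 per group for both assays and named biological replicates in the ATAC-seq methods. The ATAC-seq table, from Bowtie2, Picard, MACS2, DiffBind and HOMER, gave the authors' mean log2 concentration per genotype, which was used with no test. A p-value column of the authors, adjusted, was read only to test that all 23932 listed peaks were under 0.05. Other columns hold the authors' fold changes, their errors and p-values and were not used. Exon lengths came from GENCODE M21. The peaks of the module were those carrying a member's name in the table. Genes named were the 8 members, pathway and marker genes that were called or have a named role, genotype and sort checks, genes between the receptor genes, and the 3 most like *Slamf6*. Members and lists were chosen with earlier results of these data known. A marker gene and a reference window are not reported here. Reads of NOD mice were aligned to a C57BL/6J genome, and the SLAM region is known to differ between mouse strains, and its part in these values was not tested.

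Of the other marker lists, none of 6 CD8 T cell identity genes and none of 6 progenitor genes was called, *Cxcr6* and *Havcr2* of 5 effector genes tested were called lower, *Csf1r* and *Itgax* of 4 myeloid and dendritic genes tested lower, *Cd4* and *Zbtb7b* of 4 CD4 T cell and Treg genes lower, and none of 3 red cell and platelet genes tested, beside 17.6% of all genes called. By limma adjusted p alone 5 of the 6 CD8 T cell identity genes and 2 of the 6 progenitor genes passed, beside 40.7% of all genes.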

Additional observations from a re-analysis of the deposited data

How the results depend on the processing

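Over 15 alternatives for each of the 8 genes, 115 of 120 log2 fold changes kept their direction and their side of an adjusted p of 0.05. *Slamf1* turned from −0.036 to 0.026 when libraries were scaled to the same sum, which moved the median log2 fold change of all genes from −0.00018 to 0.062. The number of members called, 1 in the report, was 0 when libraries were scaled to the same sum and 0 with a 1.5-fold limit, since *Cd48* lies at the fold limit, and 2 by adjusted p alone, with *Sh2d1a* added. It ranged from 0 to 2 when each library was left out. *Cd48* was called in 13 of 17 alternatives. All genes called numbered 2538, and 5887 by adjusted p alone, while the pathway list went from 2 to 10 of 22 genes tested, beside 40.7% of all genes by limma adjusted p alone. edgeR on the recovered reads called 2541 genes and DESeq2 called 2422. Of the peaks given to the members, 7 higher and 6 lower, 1 and 4 differed by more than 0.5, and 0 and 1 by more than 1. Assigned by position they were 8 and 6, and within 50 kilobases 5 and 6, where the majority turned to lower. With the replicate number as a replicate block, 2474 genes were called, with 1 member and 2 pathway genes as before. The deviations of same-numbered libraries correlated at 0.31, −0.20 and 0.09, and not every library correlated best with its own number. Deviations from a mean of 3 libraries are not independent of each other. These correlations therefore cannot tell whether same-numbered libraries were handled together. Members whose genotypes did not overlap numbered 4, and 2 when libraries were scaled to the same sum, and 4 with TMM scaling, alternatives chosen for this count after seeing the data. The scarcest member, *Cd244a*, had 74 recovered reads in UTX replicate 1, and the part of depth in its interval was not tested.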
